A study of Homo sapiens with 20 samples.

Results

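The 10 genes described here encode heat shock chaperones. They are HSPA1A, HSPA1B and HSPA8 of the HSP70 family, the HSP110 gene HSPH1, the HSP90 gene HSP90AA1, the J-protein gene DNAJB1, the cochaperone gene BAG3, the mitochondrial chaperonin genes HSPD1 and HSPE1, and the small heat shock protein gene HSPB1. They were taken by gene symbol from a table of 60719 genes, and all 10 were among the 16327 genes that passed the low-count filter. The RNA came from 2 lines with 10 libraries each, WT Jurkat, which derives from a human T cell leukemia, and JinB8, a CD47-deficient somatic mutant of Jurkat that is called CD47- here. The question was how the chaperone transcripts changed with time after plating, and how they differed between the lines.

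At 1 h each line gave 4 libraries, from untreated cells (UT), cells on plates coated with antibodies to CD3 and CD28 (CD3+CD28), cells on such plates that also received thrombospondin-1 (CD3+CD28+TSP1), and cells that received TSP1 alone. At 3 h and at 6 h each line gave 3 libraries, 1 for each of these treatments other than UT. TSP1, a secreted ligand of CD47, was added at 1 μg/mL, and the CD28 antibody was used at 4 μg/mL. All cells were held in the same serum-free HITES medium, with hydrocortisone, insulin and transferrin among its additions, so every group shared its agents. Each condition was sequenced once in each line. The tests of time and of treatment, and those of the lines at each time, therefore take their spread from how far the libraries depart from treatment and time effects that add up within each line, to which the UT libraries add nothing. The comparison of the lines over all libraries has no such terms, so its spread holds treatment and time as well. JinB8 is a single mutant line, so loss of CD47 cannot be told apart from other differences between the lines.

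Heat shock chaperones bind unfolded or partly folded proteins. HSF1, the main heat shock transcription factor, activates their genes from heat shock elements, which are alternating repeats of GAA and TTC. HSP70 proteins bind and release their clients in an ATP cycle that J-proteins start and that nucleotide exchange factors such as HSP110 and BAG proteins complete, while HSP90 finishes the folding of kinases and steroid receptors, and HSPD1 with its lid HSPE1 folds proteins in mitochondria. In T cells these chaperones fold signaling proteins, and many of them rise when cells are stressed.

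The 250 bases before the start sites show how the promoters differ, and they are given for the HSP70 genes and DNAJB1, which had the largest changes with time, and for HSPD1, whose start region also serves HSPE1. The sequences are from RefSeq on GRCh38.p14, 5′ to 3′ on the strand of the gene, and capitals mark each GAANNTTC or TTCNNGAA, the 2 forms of a pair of heat shock repeats. The first 2 belong to the near-identical genes HSPA1A, at chr6:31815293-31815542 on the plus strand, and HSPA1B, at chr6:31827488-31827737 on the plus strand. The others are HSPA8, at chr11:123062137-123062386 on the minus strand, DNAJB1, at chr19:14518398-14518647 on the minus strand, and HSPD1, at chr2:197499841-197500090 on the minus strand.
HSPA1A: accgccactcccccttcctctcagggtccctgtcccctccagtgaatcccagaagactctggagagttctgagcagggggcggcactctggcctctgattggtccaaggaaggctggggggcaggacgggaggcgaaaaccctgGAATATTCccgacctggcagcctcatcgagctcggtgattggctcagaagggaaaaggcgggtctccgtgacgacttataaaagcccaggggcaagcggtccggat
HSPA1B: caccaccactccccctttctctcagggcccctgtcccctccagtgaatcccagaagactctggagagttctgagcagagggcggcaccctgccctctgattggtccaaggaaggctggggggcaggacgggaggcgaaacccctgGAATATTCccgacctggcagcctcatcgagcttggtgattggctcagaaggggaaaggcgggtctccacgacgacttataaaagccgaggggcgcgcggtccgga
HSPA8: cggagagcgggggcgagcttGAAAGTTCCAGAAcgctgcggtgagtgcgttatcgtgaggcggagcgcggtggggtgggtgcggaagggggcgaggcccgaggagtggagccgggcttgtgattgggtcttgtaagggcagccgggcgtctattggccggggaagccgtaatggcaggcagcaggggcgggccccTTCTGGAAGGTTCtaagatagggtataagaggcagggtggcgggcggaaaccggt
DNAJB1: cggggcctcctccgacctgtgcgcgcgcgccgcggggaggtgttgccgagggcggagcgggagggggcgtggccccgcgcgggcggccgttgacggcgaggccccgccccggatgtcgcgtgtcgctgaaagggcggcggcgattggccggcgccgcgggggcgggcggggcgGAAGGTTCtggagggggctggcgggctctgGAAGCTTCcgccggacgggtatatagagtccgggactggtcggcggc
HSPD1: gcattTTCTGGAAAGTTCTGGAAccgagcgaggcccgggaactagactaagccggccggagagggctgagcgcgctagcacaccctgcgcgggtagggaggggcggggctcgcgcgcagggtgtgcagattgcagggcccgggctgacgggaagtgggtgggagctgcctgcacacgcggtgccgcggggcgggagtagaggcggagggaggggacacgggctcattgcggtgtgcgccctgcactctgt

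Of the 14 RefSeq promoters listed for the 10 genes, 7 held at least 1 pair of repeats in this window, and 11.6% of 35116 RefSeq promoters of the same length did. For 1 promoter per gene, the one nearest to the start of any transcript with at least 5% of the gene's counts was taken. Of these, 7 of the 10 held a pair, and the counts that follow are for them. HSPA1A, HSPA1B and HSPB1 held 1 pair, DNAJB1 held 2, HSP90AA1 and HSPD1 held 3 and HSPA8 held 4. A run of 3 or more alternating repeats at the same spacing occurred in HSPA8, HSP90AA1 and HSPD1, and in 0.44% of all promoters. HSPH1, HSPE1 and BAG3 had no such letters in this window. HSPD1 and HSPE1 start 539 bases apart and run in opposite directions, and the repeats of HSPD1 lie 294 to 311 bases before the start of HSPE1, just outside the window searched for that gene. CCAAT on either strand was found before 4 of the 10 genes and in 32% of all promoters, and TATAA on the strand of the gene before 5 of the 10 and in 13.6% of all promoters. HSPA1A and HSPA1B matched at 94.4% of 249 bases when shifted by 1 base.

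On GRCh38 with GENCODE 44, the genes lie at chr6:31815543-31817946 (HSPA1A), chr6:31827738-31830254 (HSPA1B), chr11:123057489-123063230 (HSPA8), chr13:31134973-31162388 (HSPH1), chr14:102080742-102139699 (HSP90AA1), chr2:197486584-197516737 (HSPD1), chr2:197500140-197503449 (HSPE1), chr7:76302673-76304295 (HSPB1), chr19:14514769-14560391 (DNAJB1) and chr10:119651380-119677819 (BAG3), and all 10 are protein coding. The main transcripts of HSPA1A and HSPA1B have a single exon, and those of the others have 3 to 17. HSPA1A has a further coding transcript of 2 exons, which took 35.6% of its counts.

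The libraries held 16107921 to 31737616 counts. Of the 10 genes, the lowest count in any library was 721, for BAG3. CD47 itself was lower in JinB8, at 0.465 times its WT level with an adjusted p of 1.05e-10 in edgeR's quasi-likelihood test. Levels are given as CPM, the counts of a gene scaled to the TMM-adjusted library size (the axis of the plots spells the unit out). Of 13 T cell markers, 12 were at 10 CPM or higher in every library. The 5 B cell markers, of which 3 were under 1 CPM in every library, summed to between 35.6 and 56 CPM in WT and between 5.86 and 13.7 CPM in CD47- cells, and their part in the differences between the lines was not tested. The CD47- CD3+CD28+TSP1 library at 3 h stood apart, with the lowest total count, the highest TMM factor (1.20) and the highest mitochondrial share of counts (0.663%). It also had the lowest HSPA8, HSPD1 and HSPE1 values of all libraries, and several of the 3 h values it moves are given with and without it. Without this library, HSPE1 and HSPB1 for 3 h against 1 h in CD47- cells changed sign, to 0.10 and 0.15, and neither passed. Without it, 5 in place of 4 of the 10 genes were called for 3 h against 1 h in CD47- cells, 8 in place of 7 between the lines at 3 h, and 4 in place of 3 for the difference between the lines by 3 h.

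Log2 fold changes are given ± SE with an adjusted p (Benjamini-Hochberg, all 16327 genes) from edgeR's quasi-likelihood test, for which 0.05 was the threshold. In bulk RNA, fewer cells with a transcript and less transcript per cell cannot be told apart. Between 1 h and 6 h in WT cells, 3 of the 10 genes rose and 5 fell, against 50.5% of all genes that changed in either direction, and in CD47- cells 4 rose and 3 fell, against 53% of all genes. HSPA8 and HSPE1 rose in both lines and DNAJB1 and HSP90AA1 fell in both. HSPA1A and HSPA1B fell in WT and rose in CD47- cells. The mitochondrial share of counts moved with time as well, from 0.584% to 0.643% at 1 h to 0.380% to 0.423% at 6 h in WT cells and from 0.498% to 0.603% to 0.339% to 0.510% in CD47- cells, and its part in the changes was not tested. The median log2 fold change of the 10 genes was -0.26 in WT and 0.07 in CD47- cells, and that of all genes tested was -0.0031 and -0.0034.

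**Figure D1:**
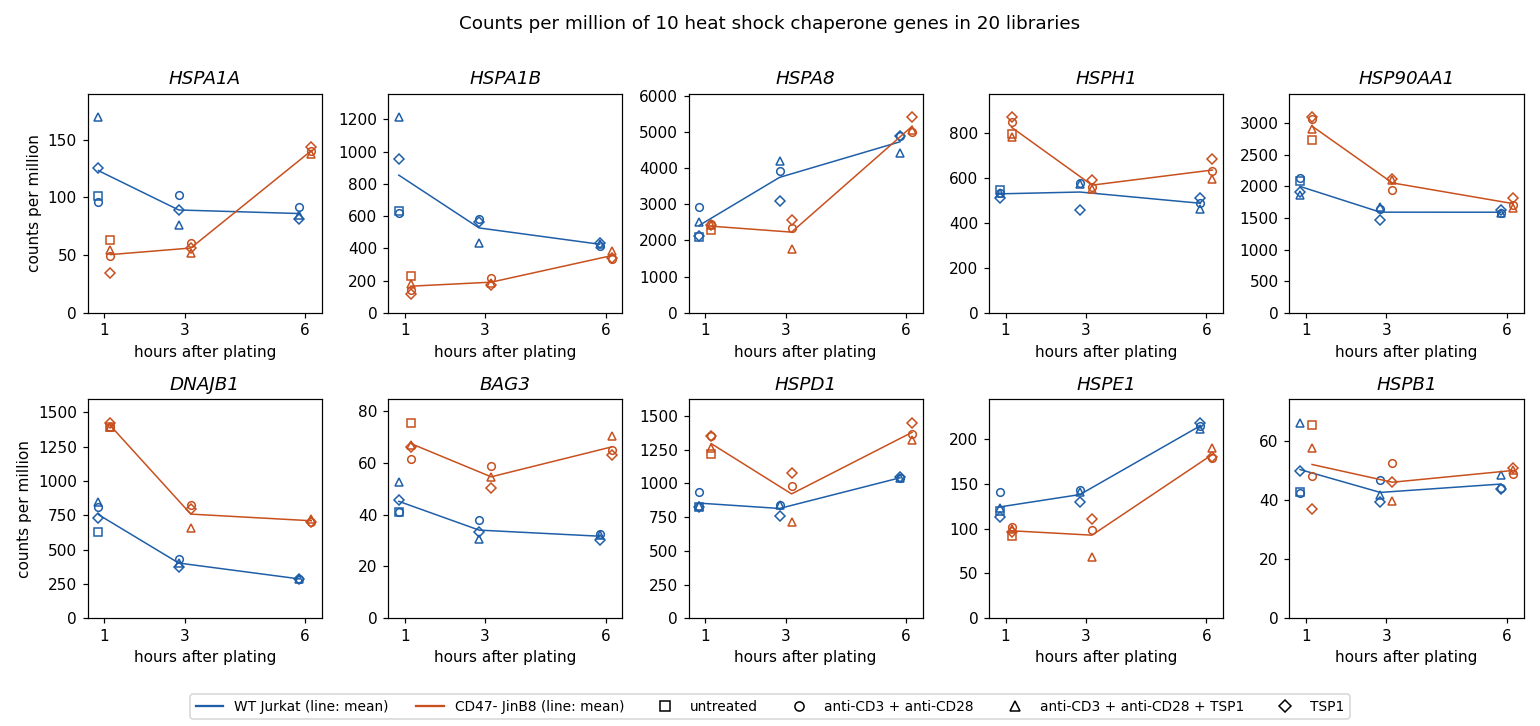
CPM of each gene against hours after plating in the 20 libraries, with WT in blue, CD47- in orange, a symbol for each treatment and a line through the mean of each time. HSPA1A and HSPA1B move in opposite directions in the lines, while HSPA8 and HSPE1 end higher and DNAJB1 ends lower than they began in both.

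HSPA1A and HSPA1B encode the stress-inducible HSP70. They lie 9791 bases apart on chromosome 6, and the coding sequences of their single-exon transcripts, of 1923 bases, differ at 4 positions. The division of reads between them by the counting program is therefore uncertain, and their sum is given as well. In WT cells at 1 h HSPA1B was at 629 CPM in UT, 619 in CD3+CD28, 1213 in CD3+CD28+TSP1 and 953 in TSP1. At 3 h it was at 580, 433 and 564 CPM in CD3+CD28, CD3+CD28+TSP1 and TSP1, and at 6 h at 412, 429 and 435. The 1 h libraries were all above the 3 h and the 6 h libraries, and those at 1 h spread widely. HSPA1B fell by 3 h (-0.79 ± 0.19, adjusted p = 0.00522), a change that was -0.51 without the CD3+CD28+TSP1 library at 1 h, and by 6 h (-1.11 ± 0.19, adjusted p = 2.28e-04), to 0.464 times its 1 h level. Over 20 fits that each left out 1 library, the change by 6 h ranged from -1.39 to -0.82.

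In CD47- cells at 1 h HSPA1B was at 227 CPM in UT, 140 in CD3+CD28, 178 in CD3+CD28+TSP1 and 114 in TSP1, all below the lowest WT library of any time. At 3 h it was at 215, 183 and 171 CPM in the same order of treatments, and at 6 h at 336, 385 and 342. The 6 h libraries were above all others of the line, whereas the 1 h and 3 h libraries overlapped. HSPA1B rose by 6 h (1.31 ± 0.19, adjusted p = 4.86e-05), by 2.49-fold. The difference between the lines in this change was 2.42 ± 0.27, adjusted p = 6.40e-05, and it passed the test, as did 16.6% of all genes.

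HSPA1A lay lower and moved in the same directions. The WT values were 101, 95.9, 170 and 126 CPM at 1 h in UT, CD3+CD28, CD3+CD28+TSP1 and TSP1, 102, 75.8 and 89.2 CPM at 3 h, and between 81.6 and 91.2 CPM at 6 h. The CD47- values were 63.4, 49.3, 54.2 and 34.6 CPM at 1 h, between 52.1 and 60.2 at 3 h, and 140, 138 and 143 CPM at 6 h. The 6 h libraries of CD47- cells exceeded the 1 h libraries of that line without overlap, and also every WT library but the CD3+CD28+TSP1 library at 1 h. The change by 6 h was 1.62 ± 0.18, adjusted p = 5.41e-06 in CD47- and -0.59 ± 0.18, adjusted p = 0.0133 in WT cells, and the difference between these was 2.21 ± 0.26, adjusted p = 8.68e-05. The WT call was lost without the CD3+CD28+TSP1 library at 1 h (-0.33, adjusted p = 0.126), the CD3+CD28+TSP1 library at 6 h (-0.52, adjusted p = 0.0778) or the TSP1 library at 6 h (-0.56, adjusted p = 0.0548).

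The 2 genes summed fell in WT cells (-1.03 ± 0.19, adjusted p = 3.90e-04) and rose in CD47- cells (1.40 ± 0.19, adjusted p = 2.74e-05) between 1 and 6 h. At 1 h the sum was lower in CD47- than in WT cells (-2.47 ± 0.20, adjusted p = 2.47e-07), at 0.18 times the WT level over the 3 treatments other than UT (in UT the sum was at 290 and 730 CPM), and at 6 h the difference was -0.05 ± 0.18, adjusted p = 0.862, with a 95% interval of -0.44 to 0.35. HSPA1A took 11.7% to 18.1% of the counts of the pair in WT and 21.8% to 29.5% in CD47- libraries, with no overlap. HSPA1A alone was lower in CD47- cells at 1 h (-1.50 ± 0.18, adjusted p = 1.72e-05). At 6 h it was higher in CD47- cells (0.71 ± 0.18, adjusted p = 0.0047), whereas HSPA1B was not called (-0.26 ± 0.19, adjusted p = 0.268) other than without the low-count filter (adjusted p = 0.0144). In CPM the CD47- library had less HSPA1B in 10 of 10 pairs with the same treatment and time.

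**Figure D2:**
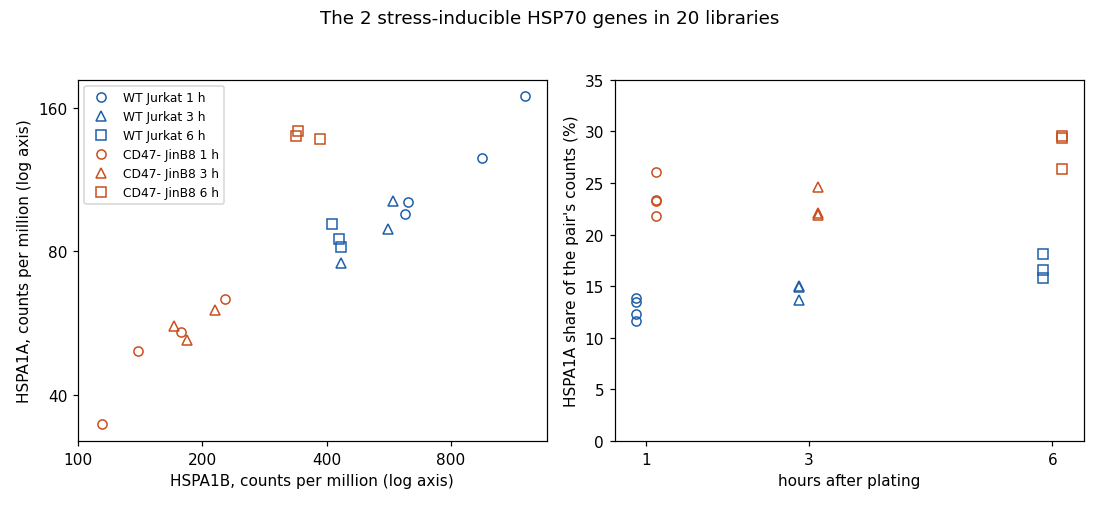
Left, HSPA1A against HSPA1B in CPM on log axes in the 20 libraries, by line (color) and time (symbol). Right, the HSPA1A share of the counts of the pair against hours after plating. The CD47- libraries at 1 h and 3 h lie lowest on both genes, and the shares of 21.8% to 29.5% in CD47- libraries are all above the 11.7% to 18.1% in WT.

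HSPA8 encodes HSC70, the constitutive cytosolic HSP70. In WT cells it was at 2104 CPM in UT, 2930 in CD3+CD28, 2501 in CD3+CD28+TSP1 and 2113 in TSP1 at 1 h. It was at 3926, 4201 and 3091 CPM in CD3+CD28, CD3+CD28+TSP1 and TSP1 at 3 h, and at 4872, 4424 and 4873 at 6 h. Each time point lay above the one before without overlap. HSPA8 rose by 3 h (0.57 ± 0.12, adjusted p = 0.00265) and by 6 h (0.92 ± 0.12, adjusted p = 2.93e-05) in WT cells.

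In CD47- cells HSPA8 was at 2282 to 2458 CPM at 1 h, at 2347, 1764 and 2570 at 3 h in the same order, and at 4998, 5048 and 5404 at 6 h. The 3 h libraries overlapped with those at 1 h, and the 6 h libraries were above all others in either line. HSPA8 did not pass at 3 h (-0.14 ± 0.12, adjusted p = 0.406, and 0.021 without the CD3+CD28+TSP1 library) and rose by 6 h (1.08 ± 0.12, adjusted p = 6.05e-06), by 2.12-fold. The lines differed at 3 h (-0.75 ± 0.12, adjusted p = 2.30e-04) and were not called at 1 h, with a 95% interval of -0.30 to 0.23, or at 6 h, with one of -0.15 to 0.39. Without the CD47- CD3+CD28+TSP1 library at 3 h the difference at 3 h was -0.58, with an adjusted p of 6.77e-04. The 1 h result depends on the scaling, since counts divided by transcript length, in the TPM-like units given below, were 1278 to 1403 in CD47- and 1014 to 1119 in WT libraries at 1 h, with no overlap.

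HSPH1 encodes HSP110, a relative of HSP70 that acts as its nucleotide exchange factor. It was at 510 to 544 CPM in WT cells at 1 h, 459 to 578 at 3 h and 463 to 510 at 6 h. The CD47- values were 795 CPM in UT, 850 in CD3+CD28, 783 in CD3+CD28+TSP1 and 870 in TSP1 at 1 h, 559, 551 and 592 at 3 h, and 629, 593 and 682 at 6 h. The CD47- libraries at 1 h exceeded every other library. HSPH1 was higher in CD47- cells at 1 h (0.67 ± 0.08, adjusted p = 1.73e-05) and at 6 h (0.38 ± 0.08, adjusted p = 0.00168), and fell between 1 and 6 h in CD47- cells (-0.39 ± 0.08, adjusted p = 0.00103), while its WT change had a 95% interval of -0.28 to 0.07.

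HSP90AA1 encodes the stress-responsive cytosolic HSP90. The WT values of HSP90AA1 were 2081 CPM in UT, 2133 in CD3+CD28, 1863 in CD3+CD28+TSP1 and 1918 in TSP1 at 1 h, 1639, 1667 and 1467 at 3 h, and 1573, 1580 and 1618 at 6 h. The CD47- values were 2735, 3068, 2912 and 3095 CPM at 1 h in the same order, 1949, 2094 and 2119 at 3 h, and 1703, 1658 and 1820 at 6 h. Each CD47- time lay below the one before without overlap, whereas in WT the 1 h libraries were above all later ones and those at 3 and 6 h overlapped. HSP90AA1 fell by 6 h in CD47- cells (-0.81 ± 0.08, adjusted p = 1.29e-06) and in WT cells (-0.31 ± 0.08, adjusted p = 0.00476), and the fall was larger in CD47- cells (-0.50 ± 0.11, adjusted p = 0.00782). The WT call was lost with limma voom and quantile normalization, which gave -0.10 with an adjusted p of 0.289.

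DNAJB1 encodes the J-protein HSP40, which starts the ATP cycle of HSP70. In WT cells it was at 631 CPM in UT, 812 in CD3+CD28, 845 in CD3+CD28+TSP1 and 731 in TSP1 at 1 h, at 433, 403 and 371 at 3 h, and at 289, 286 and 286 at 6 h. The 3 times did not overlap. DNAJB1 fell by 3 h (-0.98 ± 0.08, adjusted p = 1.53e-06) and by 6 h (-1.47 ± 0.08, adjusted p = 1.21e-08), to 0.361 times its 1 h level, which was the largest fall of the 10 genes in WT cells.

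In CD47- cells DNAJB1 was at 1395 CPM in UT, 1393 in CD3+CD28, 1396 in CD3+CD28+TSP1 and 1424 in TSP1 at 1 h, at 822, 659 and 794 at 3 h, and at 704, 723 and 703 at 6 h. The 1 h libraries stood above all others, and those at 3 and 6 h overlapped only through the CD3+CD28+TSP1 library at 3 h. The change between 3 h and 6 h did not pass. It was called as a fall without that library (-0.21, adjusted p = 0.0206) and with limma voom (-0.34, adjusted p = 8.22e-04). DNAJB1 fell by 3 h (-0.89 ± 0.08, adjusted p = 4.58e-06, and -0.78 without the CD3+CD28+TSP1 library) and by 6 h (-0.98 ± 0.08, adjusted p = 2.90e-07), and the difference from the WT change at 6 h was 0.49 ± 0.11, adjusted p = 0.0115. In each of the 10 pairs of libraries with the same treatment and time, the CD47- library had more DNAJB1. The fitted difference was 1.77-fold at 1 h (0.82 ± 0.08, adjusted p = 2.31e-06) and 2.47-fold at 6 h (1.31 ± 0.08, adjusted p = 2.12e-08).

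BAG3 encodes a cochaperone that binds HSP70 and directs clients to autophagy. The WT values of BAG3 were 41.1 CPM in UT, 41.1 in CD3+CD28, 52.5 in CD3+CD28+TSP1 and 45.6 in TSP1 at 1 h, 37.9, 30.8 and 33.3 at 3 h, and 32.5, 32.2 and 30.3 at 6 h. In CD47- cells it was at 75.4, 61.3, 66.7 and 66.1 CPM at 1 h, at 58.8, 54.6 and 50.2 at 3 h, and at 64.9, 70.5 and 62.8 at 6 h. All WT libraries at 6 h were below those at 1 h, whereas the CD47- libraries at 1 h and 6 h overlapped. BAG3 fell by 6 h in WT cells (-0.55 ± 0.10, adjusted p = 3.65e-04), did not pass in CD47- cells (0.03 ± 0.10, adjusted p = 0.822), and these changes differed (0.58 ± 0.14, adjusted p = 0.0121). The CD47- library also had more BAG3 in 10 of 10 pairs with the same treatment and time. The fitted difference was 1.39-fold at 1 h (0.48 ± 0.10, adjusted p = 0.0013) and 2.09-fold at 6 h (1.06 ± 0.10, adjusted p = 1.06e-06).

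HSPD1, the mitochondrial HSP60, and HSPE1, its HSP10 lid, start head to head on chromosome 2. The annotated span of HSPD1 covers that of HSPE1 on the other strand, and since the strand setting of the counting is not given in the sources used here, reads from where they overlap cannot be told apart. Pseudogenes by name took at most 1.29% of the counts of HSPD1 with its copies and 1.71% of those of HSPE1. HSPE1 was at 120 CPM in UT, 141 in CD3+CD28, 123 in CD3+CD28+TSP1 and 113 in TSP1 in WT cells at 1 h, at 144, 141 and 130 at 3 h, and at 215, 212 and 218 at 6 h. The CD47- values were 92.3, 102, 99.9 and 96.3 CPM at 1 h, 99, 68.6 and 111 at 3 h, and 179, 189 and 180 at 6 h. The 6 h libraries were above all earlier ones in each line. HSPE1 rose by 6 h in WT (0.78 ± 0.12, adjusted p = 7.90e-05) and in CD47- cells (0.88 ± 0.12, adjusted p = 2.44e-05), and the difference between these changes had a 95% interval of -0.25 to 0.46.

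HSPD1 was at 821 to 937 CPM in WT cells at 1 h, 761 to 841 at 3 h and 1037 to 1043 at 6 h. In CD47- cells it was at 1217 in UT, 1346 in CD3+CD28, 1263 in CD3+CD28+TSP1 and 1347 in TSP1 at 1 h, at 978, 713 and 1073 at 3 h, and at 1365, 1317 and 1448 at 6 h. It dipped at 3 h in CD47- cells (-0.53 ± 0.09, adjusted p = 6.71e-04, and -0.38 without the CD3+CD28+TSP1 library) and its change between 1 and 6 h did not pass (0.06 ± 0.09, adjusted p = 0.609), although limma voom with quantile normalization called it (0.17, adjusted p = 0.00663). In WT cells it rose by 6 h (0.27 ± 0.09, adjusted p = 0.0263), a call that was lost without the CD3+CD28+TSP1 or the TSP1 library at 1 h or at 6 h, when the adjusted p was 0.0752 to 0.143. HSPD1 was higher in CD47- cells at 1 h (0.61 ± 0.09, adjusted p = 1.28e-04) and at 6 h (0.40 ± 0.09, adjusted p = 0.00275), whereas the CD47- library had less HSPE1 in CPM in 10 of 10 pairs with the same treatment and time. Divided by transcript length, HSPE1 overlapped between the lines at 1 h (176 to 189 in CD47- and 173 to 206 in WT libraries), and the CD3+CD28+TSP1 pair at 1 h went the other way. At 3 h the HSPE1 difference between the lines was -0.58 ± 0.12, adjusted p = 0.00114, and -0.35 without the CD47- CD3+CD28+TSP1 library, while that of HSPD1 moved from 0.17 to 0.33 and then passed (adjusted p = 0.00125). The line difference of HSPE1 over all libraries passed only with the replicate block of matched pairs (-0.39, adjusted p = 5.06e-04, against -0.35 ± 0.18, adjusted p = 0.131 without it).

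HSPB1 encodes HSP27, a small heat shock protein that holds unfolded clients without using ATP. In WT cells it was at 42.9, 42.5, 66.2 and 49.8 CPM at 1 h in UT, CD3+CD28, CD3+CD28+TSP1 and TSP1, and at 43.7 to 48.5 at 6 h. In CD47- cells it was at 65.3, 48.3, 57.7 and 36.9 CPM at 1 h in the same order, and at 48.9 to 51 at 6 h. The times overlapped within each line and the lines overlapped at 1 h, whereas at 6 h the CD47- libraries all lay just above the WT ones. HSPB1 passed the test in none of the 18 comparisons, and its 95% interval was -0.53 to 0.12 for 6 h against 1 h in WT and -0.24 to 0.40 in CD47- cells. DESeq2 and limma voom did not call it in the 12 comparisons over time and between the lines either, with adjusted p of at least 0.13 and 0.136. Without the low-count filter HSPB1 was called for 3 h against 1 h in WT cells (-0.31, adjusted p = 0.0178).

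At 3 h against 1 h, 1 of the 10 genes rose and 5 fell in WT cells (34.3% of all genes changed), and none rose and 4 fell in CD47- cells (38% of all genes), where HSPH1, HSP90AA1, HSPD1 and DNAJB1 were the 4. In CD47- cells HSPA1B was called as a rise with limma voom (0.54, adjusted p = 0.0441) and in 4 of 20 fits that each left out 1 library. Without the low-count filter HSPA1B (0.41, adjusted p = 3.37e-05) and HSPA1A (0.29, adjusted p = 0.0157) were called there. BAG3 was called as a fall without the treatment terms (-0.30, adjusted p = 0.0131), with shared treatment terms (0.0275) and in 3 of those 20 fits. Among the WT falls, that of HSPA1A (-0.54 ± 0.18, adjusted p = 0.0333) was lost with limma voom (adjusted p = 0.0616), with shared treatment terms (0.0774) and without the CD3+CD28+TSP1 or the TSP1 library at 1 h or at 3 h (0.0825 to 0.248), being -0.27 without the CD3+CD28+TSP1 library at 1 h and -0.32 without that at 3 h. The WT fall of HSP90AA1 (-0.31 ± 0.08, adjusted p = 0.00777) was lost with limma voom (-0.12, adjusted p = 0.236) and without the CD3+CD28 library at 1 h (0.0595) or the TSP1 library at 3 h (0.0605). Between 3 h and 6 h, 3 rose and 1 fell in WT cells (39.5% of all genes), and 6 rose and 1 fell in CD47- cells (39% of all genes). Among these, the WT rise of HSPA8 (0.35 ± 0.12, adjusted p = 0.037) was no longer called by limma voom on quantile-normalized values (where it was 0.000065, adjusted p = 0.999), without the treatment terms, with treatment terms shared by the lines or in 8 of 20 fits that each left out 1 library, and the CD47- rise of BAG3 (0.28 ± 0.10, adjusted p = 0.0376) was lost in 9 of these 20. Over these 20 fits the HSPA8 value ranged from 0.20 to 0.45 and the BAG3 value from 0.23 to 0.36. The fall of HSP90AA1 in CD47- cells (-0.25 ± 0.08, adjusted p = 0.0214) was lost without the CD3+CD28 or the CD3+CD28+TSP1 library of that line at 6 h (adjusted p = 0.0715 and 0.0968). The changes by 6 h differed between the lines for 5 of the 10 genes (16.6% of all genes), HSPA1A, HSPA1B, DNAJB1 and BAG3 with a higher and HSP90AA1 with a lower change in CD47- cells. The changes by 3 h differed between the lines for HSPA1B (1.20 ± 0.27, adjusted p = 0.0253), HSPA8 (-0.71 ± 0.17, adjusted p = 0.0373, and -0.55 without the CD47- CD3+CD28+TSP1 library at 3 h) and HSPH1 (-0.59 ± 0.12, adjusted p = 0.0159), against 4.28% of all genes. Each of these 3 calls was lost when any of several single libraries was left out, and the count of calls then fell to as low as 0. The HSPH1 call was also lost with limma voom (-0.36, adjusted p = 0.112). That of HSPA1B was lost without the treatment terms (0.90, adjusted p = 0.0913) and with shared treatment terms (0.91, adjusted p = 0.114).

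Between the lines, 8 of the 10 genes differed at 1 h (5 higher and 3 lower in CD47- cells, against 43% of all genes in either direction). At 3 h, 3 were higher and 4 lower (46.5% of all genes), and at 6 h 5 were higher and none lower (47.2% of all genes). Of these calls, HSPE1 at 1 h (-0.33 ± 0.12, adjusted p = 0.0352) was lost without the CD3+CD28 library at 1 h of either line, the WT CD3+CD28+TSP1 or the CD47- TSP1 library (adjusted p = 0.0636 to 0.182), and HSPA1A at 3 h (-0.67 ± 0.18, adjusted p = 0.00802) without the WT CD3+CD28 library at 3 h (0.0686). Over all 20 libraries, 5 were higher and 1, HSPA1B, lower (40.4% of all genes). HSPA1B was at 0.156 times the WT level at 1 h (-2.68 ± 0.20, adjusted p = 1.28e-07) and not called at 6 h, while DNAJB1, BAG3, HSPH1 and HSPD1 were higher at 1 h and at 6 h. The share of the 10 genes that passed at 6 h was near that of all genes. The differences at 1, 3 and 6 h are means over the 3 treatments present at every time, so the UT libraries do not enter them. In UT alone the log2 difference was -1.47 for HSPA1B, -0.67 for HSPA1A and 0.87 for BAG3, and in the model without treatment terms, which holds all 4 libraries, the difference at 1 h was -2.37 for HSPA1B, -1.29 for HSPA1A and 0.58 for BAG3.

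**Figure D3:**
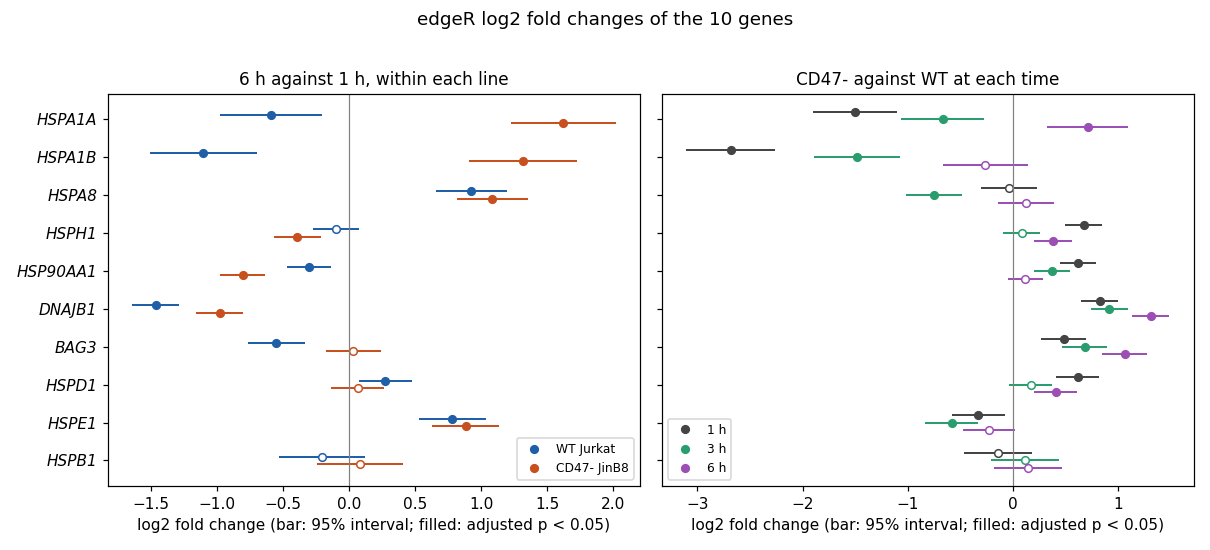
Left, log2 fold changes of 6 h against 1 h in WT (blue) and CD47- cells (orange). Right, log2 fold changes of CD47- against WT cells at 1, 3 and 6 h. Points are edgeR estimates, bars are 95% intervals and filled points have an adjusted p under 0.05. HSPA1A and HSPA1B lie on opposite sides of 0 in the lines, and the line difference of HSPA1B moves from -2.68 at 1 h to -0.26 at 6 h.

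No treatment comparison called any of the 10 genes. CD3+CD28+TSP1 against TSP1, CD3+CD28+TSP1 against CD3+CD28 and CD3+CD28 against UT were each tested in each line, and none of the 10 genes passed in any of these 6 comparisons with edgeR, with DESeq2 or with limma voom. Over all genes, edgeR called 15 in WT cells for CD3+CD28+TSP1 against TSP1 (0.0919%) and 0 (0%) in the other 5, where 366 to 2636 genes had an unadjusted p under 0.05, DESeq2 called 0 to 7 and limma voom 0. Of the 60 values of the 10 genes, 3 had an unadjusted p under 0.05 in edgeR. These were DNAJB1 for CD3+CD28 against UT in WT cells (0.38 ± 0.13, adjusted p = 0.565), HSPD1 for CD3+CD28+TSP1 against TSP1 in CD47- cells (-0.27 ± 0.09, adjusted p = 0.283) and HSPA1B for CD3+CD28 against UT in CD47- cells (-0.64 ± 0.28, adjusted p = 0.994). Without the low-count filter, 2 of the 10 genes were called for CD3+CD28+TSP1 against TSP1 (538 of 41107 genes) and 1 for CD3+CD28 against UT (256 of 41107), both in CD47- cells. The 95% intervals were wide, the lowest bound being -1.24 and the highest 1.04 for CD3+CD28 against UT, which rests on a single UT library in each line.

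Measured per length, HSPA8 had the highest mean of the 10 transcripts over the 20 libraries, although the order changed with line and time. Here the count of each isoform was divided by the length of its transcript, and the results were scaled to the same sum in every library as TPM are. HSPA8 averaged 1586 ± 448 (SD, n = 20), HSP90AA1 833 ± 366, HSPD1 417 ± 101, DNAJB1 342 ± 198, HSPE1 235 ± 63, HSPH1 218 ± 75, HSPA1B 160 ± 94, HSPB1 62 ± 12, HSPA1A 39 ± 13 and BAG3 20 ± 7.6. HSP90AA1 exceeded HSPD1 in 20 of 20 libraries, and HSPB1 exceeded HSPA1A in 19. Other neighbors in this order crossed within the libraries, as HSPA8 exceeded HSP90AA1 in 16 (all but the 4 CD47- libraries at 1 h), HSPD1 exceeded DNAJB1 in 14, DNAJB1 exceeded HSPE1 in 11, HSPE1 exceeded HSPH1 in 13 and HSPH1 exceeded HSPA1B in 12. By line, HSPA1B averaged 225 ± 91 and HSPH1 162 ± 18 in WT cells, against 95.3 ± 32 and 275 ± 67 in CD47- cells (SD, n = 10), and DNAJB1 averaged 202 ± 84 and HSPE1 248 ± 68 in WT cells, against 481 ± 180 and 222 ± 58. On this scale some overlaps between the lines were not those in CPM. At 3 h the CD47- libraries lay above all WT ones in HSPH1 (224 to 288 against 160 to 176), HSPD1 (403 to 480 against 295 to 322) and HSPB1 (68.3 to 74.4 against 49.6 to 57.1), and in CPM these overlapped. The lines overlapped in HSPA1A at 3 h (27.9 to 32.6 in CD47- and 31.4 to 42.3 in WT libraries) and in HSPE1 at 3 h (172 to 216 and 213 to 238) and at 6 h (282 to 337 and 334 to 351), and in CPM these did not. The same held at 6 h for HSPA1B (121 to 153 and 143 to 156) and HSPB1 (56.8 to 66.5 and 52.1 to 58.9). HSPA8 (2179 to 2466 against 1912 to 2084) and HSP90AA1 (569 to 619 against 480 to 513), not called between the lines at 6 h, were higher in every CD47- library at 6 h, as they also were in CPM. Summed, the 10 genes made up 2993 to 3412 of these units in WT cells at 1 h and 3657 to 3850 at 6 h, and 4402 to 4980 and 4278 to 4803 in CD47- cells.

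Isoform counts showed a change within the genes that the gene totals do not. GENCODE labels some transcripts as retained introns, meaning that they keep intron sequence. In HSPH1 these held 27.2% to 32.8% of the gene's counts in WT cells at 1 h, 16.5% to 19.8% at 3 h and 17.3% to 17.8% at 6 h, and in CD47- cells 34.8% to 37.9%, 24.3% to 29.7% and 22.9% to 24.8%. In HSPE1 the share went from 20.5% to 25.9% at 1 h to 10.6% to 11.4% at 6 h in WT cells, and from 27.2% to 33% to 14.1% to 15.3% in CD47- cells. No 6 h library overlapped with a 1 h library in either gene or line.

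HSPD1 and HSP90AA1 showed the same order. The HSPD1 share was 26.6% to 29.2% at 1 h and 18.9% to 20.1% at 6 h in WT cells, and 35.2% to 36.3% and 23.1% to 24.3% in CD47- cells. The HSP90AA1 share was 5.87% to 6.62% and 2.00% to 2.11% in WT cells, and 8.24% to 9.26% and 3.19% to 3.45% in CD47- cells. In HSPA8 it went from 5.05% to 6.09% at 1 h to 1.94% to 2.15% at 6 h in WT cells, and from 10.7% to 12.7% to 3.39% to 3.67% in CD47- cells.

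In HSPB1 retained introns held 32.1% to 44.6% of the counts in WT and 33% to 47.8% in CD47- libraries. Over all genes the share was 5.43% to 6.26% at 1 h and 5.18% to 5.23% at 6 h in WT cells, and 5.69% to 6.20% and 4.97% to 5.32% in CD47- cells. Of 2676 genes with a count of 200 or more in every library and at least 5% of their counts, summed over the libraries, on retained introns, 26% had all 6 h shares below all 1 h shares in WT cells and 30.4% in CD47- cells. All 5 of the 10 genes that met these limits, HSPH1, HSP90AA1, HSPD1, HSPE1 and HSPB1, were of this kind in each line. Their median difference in share was -9.57 percentage points in WT and -12 in CD47- cells, beside -1.21 and -1.45 over the 2676 genes. This measure was chosen after the isoform counts had been seen, and isoform counts of short reads are estimates.

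**Figure D4:**
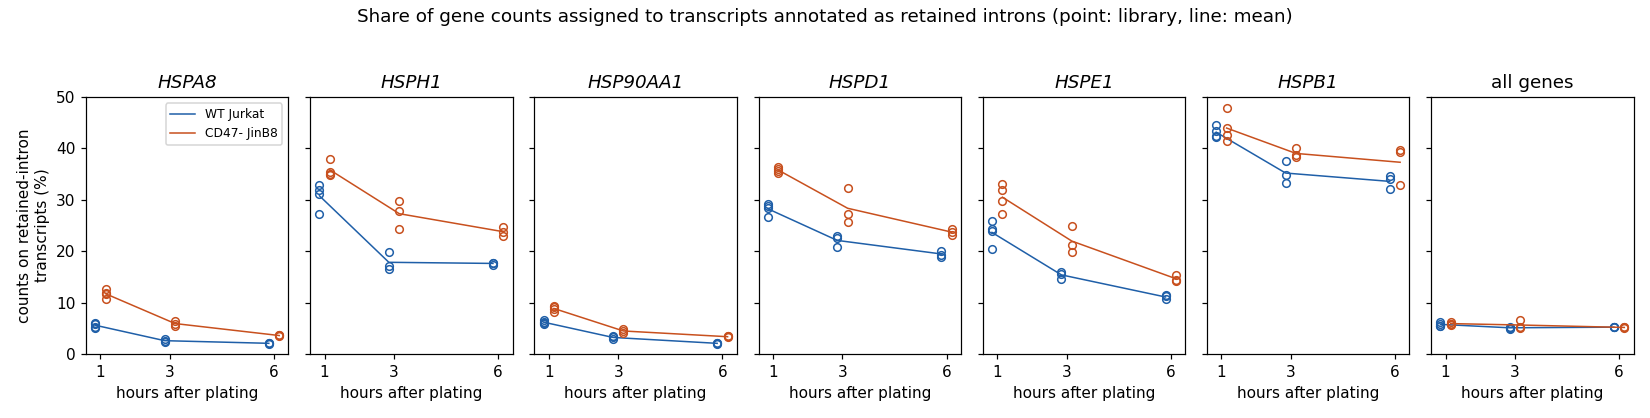
Percent of each gene's counts on transcripts that GENCODE labels as retained introns, against hours after plating, with a point for each library and a line through the means, in WT (blue) and CD47- cells (orange). The shares of HSPH1, HSPD1 and HSPE1 at 6 h are all below those at 1 h, while the share over all genes stays between 4.93% and 6.54%.

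Single isoforms were tested in the same model over 55450 isoforms, of which 14.9% changed between 1 and 6 h in WT and 17.3% in CD47- cells. The retained-intron isoforms HSPH1-207 and HSPH1-208 fell, with changes of -0.86 ± 0.08, adjusted p = 1.13e-04 in WT and -0.95 ± 0.08, adjusted p = 5.54e-05 in CD47- cells for the first and of -0.73 ± 0.08, adjusted p = 2.12e-04 and -0.84 ± 0.08, adjusted p = 8.59e-05 for the second. The coding isoform HSPH1-201 rose in WT (0.63 ± 0.16, adjusted p = 0.0271) and in CD47- cells (2.31 ± 0.17, adjusted p = 2.21e-05), while the coding isoform HSPH1-202 fell (-0.58 ± 0.11, adjusted p = 0.00472 and -1.22 ± 0.11, adjusted p = 5.86e-05). The coding isoform HSPE1-201 rose in both lines (1.16 ± 0.20, adjusted p = 0.00283 in WT and 1.46 ± 0.20, adjusted p = 6.90e-04 in CD47- cells), and HSPD1-202 did too (0.54 ± 0.13, adjusted p = 0.0177 and 0.45 ± 0.13, adjusted p = 0.0345). The retained-intron isoform HSPD1-210 fell in WT (-0.25 ± 0.07, adjusted p = 0.0352) and in CD47- cells (-0.49 ± 0.07, adjusted p = 7.98e-04). HSPA1A and DNAJB1 also had isoforms whose shares scattered within groups, HSPA1A-201 between 13.4% and 92.3% of the gene's counts and DNAJB1-213 between 0% and 65.6%, and no direction was read from these.

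The other genes of the pathway were taken from 9 lists of 100 genes, of which 89 passed the low-count filter. Between 1 and 6 h, 47 rose and 18 fell in WT cells, and 43 rose and 17 fell in CD47- cells, beside the 50.5% and 53% of all genes that changed in either direction, which are also the background of the counts by list below. The median log2 fold change of the 89 was 0.31 in the former and 0.20 in the latter. The difference between the lines passed for 27 of the 89, 5 with a higher and 22 with a lower change in CD47- cells (16.6% of all genes in either direction). Over all libraries, 21 were higher and 13 lower in CD47- cells, a share near the 40.4% of all genes.

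The cytosolic chaperonin folds actin and tubulin. Of its 8 subunit genes, 7 rose in WT, where CCT8 did not pass (0.25 ± 0.10, adjusted p = 0.0508), and 8 in CD47- cells, led by CCT3 (1.34 ± 0.10, adjusted p = 1.58e-07 in WT and 1.08 ± 0.10, adjusted p = 8.79e-07 in CD47- cells) and CCT5 (0.86 and 0.82). The mitochondrial proteases and chaperones gave 5 of 8 higher in WT and 7 of 8 higher in CD47- cells, with none lower, among them the disaggregase gene CLPB (1.23 ± 0.06, adjusted p = 2.57e-09 and 0.97 ± 0.06, adjusted p = 1.20e-08). Among 11 exchange and docking factors of HSP70, 5 rose and 3 fell in WT and 6 rose and 3 fell in CD47- cells, and HSPBP1, an exchange factor, had the largest rise of the list in both (1.72 ± 0.11, adjusted p = 3.86e-08 and 1.79 ± 0.11, adjusted p = 1.95e-08).

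Of 11 heat shock factors and other HSF1 targets, 2 rose, 7 fell and 2 did not pass in WT cells, and none rose, 4 fell and 7 did not pass in CD47- cells. SERPINH1, the collagen chaperone HSP47, had the largest fall of the list in both lines (-1.45 ± 0.08, adjusted p = 6.79e-09 and -1.19 ± 0.07, adjusted p = 2.20e-08), and HSF2, a heat shock factor, fell as well (-0.74 ± 0.09, adjusted p = 1.86e-05 and -0.63 ± 0.09, adjusted p = 7.13e-05). Over all libraries SERPINH1 (1.34 ± 0.24, adjusted p = 9.21e-05) and IER5 (1.10 ± 0.10, adjusted p = 7.00e-09) were higher in CD47- cells. HSPA6, a strictly stress-inducible HSP70, fell in WT cells (-0.93 ± 0.11, adjusted p = 7.30e-06) and was higher in CD47- cells over all libraries (0.96 ± 0.14, adjusted p = 1.14e-05). HSP90 relatives and cochaperones gave 8 of 12 higher and 1 lower in WT and 7 higher and 2 lower in CD47- cells. In 14 DNAJ genes 7 rose and 2 fell in WT and 6 rose and 5 fell in CD47- cells, and of 2 small heat shock protein genes only CRYAB, in CD47- cells, passed (0.56 ± 0.16, adjusted p = 0.00963).

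The folding genes of the endoplasmic reticulum, where secreted proteins fold, held more of the differences between the lines than any other of the 9 lists. Of 12, 9 rose and 3 fell in WT cells between 1 and 6 h (median log2 fold change 1.28), whereas 3 rose and 2 fell in CD47- cells (median -0.0099). The test of the difference passed for 11 of the 12, 10 lower and 1 higher in CD47- cells. HSPA5, the BiP chaperone of this compartment, stood in the list of 11 HSP70 and HSP110 relatives, of which 4 rose and 2 fell in WT and 5 rose and 1 fell in CD47- cells. It rose in WT cells (2.07 ± 0.10, adjusted p = 4.34e-09), and the change in CD47- cells differed from that by -2.29 ± 0.14, adjusted p = 4.51e-07. HSP90B1, the HSP90 of the same compartment, gave 2.17 ± 0.10, adjusted p = 2.50e-09 in WT cells and a difference of -2.60 ± 0.14, adjusted p = 8.73e-08. Among the 10 cytosolic and mitochondrial genes, the lowest such difference was that of HSP90AA1, at -0.50.

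**Figure D5:**
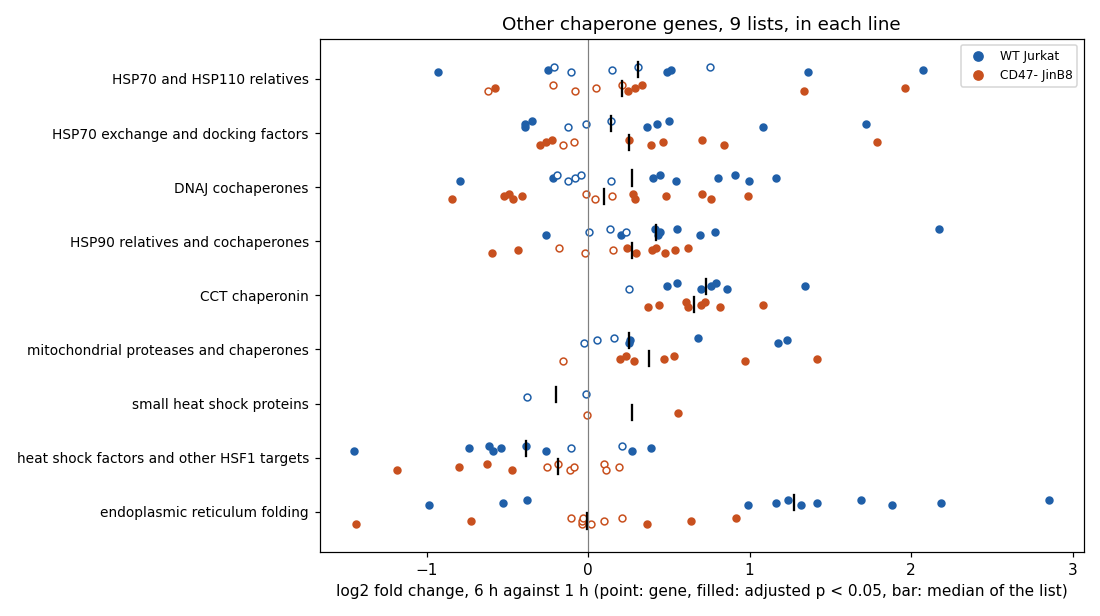
Log2 fold change of 6 h against 1 h for the 89 tested genes of 9 chaperone lists, in WT (blue) and CD47- cells (orange), with filled points for an adjusted p under 0.05 and a black bar at the median of each list. Chaperonin genes rise in both lines, other than CCT8 in WT, and the genes of folding in the endoplasmic reticulum have medians of 1.28 (WT) and -0.0099 (CD47-).

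The genes whose patterns were most like those of the 10 were found by Pearson's r of log2 CPM over the 20 libraries, among the 9990 genes whose log2 CPM averaged 3 or more. The libraries share lines, times and treatments, so r is given as a description. DNAJB1 was closest to SERPINH1 (r = 0.98), AARS1 (0.98) and LINC02731 (0.97), and BAG3 to HSPA6 (0.98), UAP1L1 (0.97) and SLC43A1 (0.97). HSPE1 was closest to TOMM6 (0.99), CCT2 (0.98) and LIPA (0.96), HSPA8 to PSMC3 (0.97), ATP5MD (0.96) and PGM2 (0.96), and HSPD1 to KARS1 (0.97), ATP6V1E1 (0.96) and EIF2B5 (0.96). HSP90AA1 was closest to UNC13B (0.97), AMN1 (0.96) and GABARAPL1 (0.96), HSPH1 to TBC1D4 (0.93), ZNF616 (0.93) and STAT6 (0.91), and HSPA1B to ICAM3 (0.94) and TMEM97 (0.92). HSPA1A (SNHG7, RPPH1 and RPL35, each 0.85) and HSPB1 (SHISA5, PLEKHM2 and HAUS7, each 0.80) had no gene as close. Within single lines r could differ, being 0.07 in WT and 0.98 in CD47- cells for HSPH1 and TBC1D4. Within the 10, HSPA1A and HSPA1B had an r of 0.83 (0.95 in WT and 0.97 in CD47- cells), HSPA8 and HSPE1 of 0.92 (0.88 and 0.99), HSP90AA1 and DNAJB1 of 0.88 (0.85 and 0.94), DNAJB1 and BAG3 of 0.87 (0.91 and 0.45), and HSPA1B and HSPH1 of -0.70 (0.18 and -0.50).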

How the data were processed

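RNA was sequenced from 10 libraries of WT Jurkat cells and 10 of JinB8 cells, which fall into 3 times after plating and 4 treatments per the labels. The values deposited by the authors are expected counts per gene and per isoform from RSEM, which need not be whole numbers, and they are not normalized. The submitters' processing notes name cutadapt 1.18, STAR 2.4.2a, RSEM 1.3.3, limma and the GRCh38 (hg38) build, and whether counting used strand is not given in the sources used here. A batch adjustment of the study whose batches are not named was not repeated, and 2 columns of each table that belong to no sample were not used.

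Counts were rounded and tested with edgeR 4.0.16 (glmQLFit and glmQLFTest, R 4.3.3), with TMM factors and filterByExpr by line (minimum count 10, minimum total 15). One model of 12 coefficients over all 20 libraries, with 8 residual degrees of freedom, held a term for each line and treatment and the 3 h and 6 h terms of each line. The lines over all libraries were compared without further terms. The comparisons of the lines at single times averaged the 3 treatments present at every time. The Benjamini-Hochberg adjustment ran over every gene tested, with a threshold of 0.05. Log2 CPM values used a pseudocount of 0.5. Alternatives were DESeq2 1.42.0, limma 3.58.1 (voom, quantile normalization), upper-quartile factors, other filters, unrounded counts, models without the treatment term or with treatment terms shared by the lines, and leaving out each library. The main model was tested for 1 comparison on simulated data. There every gene had the same dispersion, only a small part of the genes changed, and no other effect of line, treatment or time was put in. For 6 h against 1 h in CD47- cells, 46.5% of true log2 changes of 0.5 and 48.9% of those of -0.5 were recovered. At true changes of 1 and -1 the shares were 91.7% and 84.6%. In the data 53% of genes were called in this comparison, so these shares do not give the recovery to be had there.

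Same-treatment, same-time libraries of the 2 lines deviated together, with correlations of 0.126 to 0.602, so pairs matched for treatment and time were used as a block in an alternative comparison of the lines. None of the 190 pairs of libraries was identical.

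Transcript lengths and labels came from GENCODE 44, which gave a length for 229321 of 232184 transcripts and 99.1% to 99.2% of counts. Of the 10 genes, all 10 matched RefSeq promoters. Named genes were the 10 genes, up to 3 genes of each list with the smallest p in 3 comparisons, the 3 genes most like each of the 10, and isoforms with at least 5% of a gene's counts, except 1 gene that is not reported here. The genes and lists were chosen with earlier results of these data known.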

Additional observations from a re-analysis of the deposited data

Results flagged for a closer look

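Among 20 checks for a library far from its group, made for the 10 genes in the 2 groups of 4 libraries, 2 found one, where chance gives about 1 in 20. HSPD1 was at 937 CPM in the WT CD3+CD28 library at 1 h, above 821 to 832 in the other 3 libraries of that group. DNAJB1 was at 1424 CPM in the CD47- TSP1 library at 1 h, above 1393 to 1396 in the others.

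The change between 1 h and 6 h differed between the lines, in the test of the difference itself, for 5 of the 10 genes and for 16.6% of all genes. The difference, CD47- minus WT, was 2.42 on the log2 scale for HSPA1B, 2.21 for HSPA1A, 0.58 for BAG3, 0.49 for DNAJB1 and -0.50 for HSP90AA1. For the 2 HSP70 genes the changes had opposite signs in the lines, and for DNAJB1 and HSP90AA1 both lines fell. The change between 1 h and 3 h differed for HSPA1B (1.20), HSPA8 (-0.71) and HSPH1 (-0.59), and for 4.28% of all genes, and these 3 calls were lost without single libraries, among them the CD3+CD28+TSP1 and TSP1 libraries of WT cells at 1 h.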

How the results depend on the processing

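Of 120 fold changes of the 10 genes over time and between the lines, 70 passed the test, and 57 of these passed under every alternative run. Over 2007 alternative values of the 70, none changed sign and 71 no longer passed. Of 1439 alternative values of the others, 36 passed in the same direction and 46 changed sign, the largest of size 0.16 and none passing. The number of genes called for the difference between the lines by 3 h was 5 with DESeq2 and 5 without the low-count filter, and 0 to 4 without single libraries. Without the low-count filter, 2 genes were called for CD3+CD28+TSP1 against TSP1 and 1 for CD3+CD28 against UT in CD47- cells, and 0 to 1 were called for CD3+CD28 against UT in WT cells without single libraries, the 1 being without the CD47- CD3+CD28+TSP1 library at 3 h. With the replicate block of paired libraries, 7 genes differed between the lines over all libraries, and HSPE1 was the one gained. Without the treatment block the counts were 3 for 6 h against 3 h in WT, 5 for 3 h against 1 h in CD47- cells and 2 for the difference by 3 h. The cause of these shifts was not tested.

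Values that changed sign under another scaling or tool were 0.056 for HSPD1 (3 h against 1 h, WT, limma), 0.14 for HSPA8 and 0.010 for HSPB1 (3 h against 1 h, CD47-, limma; 0.011 for HSPB1 with upper-quartile factors), -0.072 for HSPH1 (6 h against 3 h, CD47-, limma) and -0.000064 for HSPA8 (lines at 6 h, limma). HSP90AA1 for 6 h against 3 h in WT cells was -0.014 with DESeq2, -0.041 with upper-quartile factors, -0.026 with the 1 CPM filter, -0.000675 without the treatment block and -0.000997 with shared treatment terms. Without the treatment block and with shared treatment terms, HSPB1 was -0.059 and -0.014 and BAG3 -0.028 and -0.020 for 6 h against 1 h in CD47- cells, and HSPB1 was 0.048 and 0.035 between the lines at 1 h.

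Leaving out single libraries gave ranges that crossed 0 for BAG3 (6 h against 1 h, CD47-, -0.031 to 0.092; 6 h against 3 h, WT, -0.24 to 0.014), HSP90AA1 (6 h against 3 h, WT, -0.052 to 0.042), HSPA1A (6 h against 3 h, WT, -0.27 to 0.14), HSPA8 (3 h against 1 h, CD47-, -0.23 to 0.021; lines at 1 h, -0.12 to 0.047), HSPD1 (6 h against 1 h, CD47-, -0.010 to 0.14), HSPE1 (3 h against 1 h, CD47-, -0.27 to 0.10; difference by 6 h, -0.030 to 0.20) and HSPH1 (3 h against 1 h, WT, -0.037 to 0.14; lines at 3 h, -0.031 to 0.17). For HSPB1 the ranges were -0.21 to 0.16 (3 h against 1 h), -0.092 to 0.29 (6 h against 1 h) and -0.062 to 0.22 (6 h against 3 h) in CD47-, -0.049 to 0.25 (6 h against 3 h) in WT cells, and -0.35 to 0.027 between the lines at 1 h. The lowest count of the 10 genes was 721, for BAG3, so depth did not limit their detection.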

Other observations

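In WT cells at 1 h, the libraries with TSP1 were the highest in HSPA1B (1213 and 953 CPM, against 629 and 619 without it) and in HSPA1A (170 and 126, against 101 and 95.9). HSPB1 (66.2 and 49.8, against 42.9 and 42.5) and BAG3 (52.5 and 45.6, against 41.1 and 41.1) had the same order, so it was not particular to the HSP70 pair. In HSPH1 and HSP90AA1 the libraries with TSP1 were the lowest, and HSPA8, DNAJB1, HSPD1 and HSPE1 were mixed. In CD47- cells at 1 h the order was not the same, since HSPA1B was at 178 and 114 CPM with TSP1 and at 227 and 140 without it. At 3 h and 6 h the libraries of each line with and without TSP1 overlapped or lay within 1.5 times of each other in HSPA1A and HSPA1B. Each of these values is 1 library, the pattern was noticed after the values were seen, and it was not tested.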
